A study of Mus musculus with 2 samples.

Results

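The genes described here are 10 precursors of neuropeptides found in cortical neurons: Sst, Cort, Crh, Tac2, Npy, Vip, Cck, Penk, Pdyn and Cartpt. They are 10 of 21474 protein-coding genes that could be matched to a symbol, and all 10 were present in both gene tables. The members were chosen by name after TPM values and expected counts of the same libraries had been seen, so the difference between the libraries is given as a description and was not tested. Layer 5 of the mouse cerebral cortex was sampled by laser capture, and 2 areas gave 1 RNA-seq library each; both came from male wild-type tissue of strain B6NCrl, also labelled C57Bl6, at 8 months of age, with no treatment named. Each area measured 8000 square microns, was entered as 50 cells and holds whatever cell types lay in it, and spike-in RNA was added. Replicate 1 and replicate 2 are the numbers the labels use for biological replicates, yet 1 donor entry covers both, so whether they come from separate animals is unclear. They form 1 group, and no comparison between conditions exists. An SD below is the spread between these areas, which may be technical in part. The libraries held 26059117 expected counts in replicate 1 and 28276843 in replicate 2. Over 11841 protein-coding genes averaging at least 1 TPM, the log2 ratio of TPM + 1, replicate 1 over replicate 2, had a median of -0.05 and an SD of 0.66.

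A neuropeptide is made as a longer precursor protein, cut by proprotein convertases, trimmed, often amidated, and stored in dense-core vesicles until strong activity releases it. In the cortex many precursors mark classes of GABAergic interneurons: Sst marks cells that target dendrites, Vip marks cells that mainly inhibit other interneurons, and Npy is found in neurogliaform and some Sst cells. Cck is made by a class of interneurons and also by many excitatory neurons.

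The precursors fall into families whose members share peptide-coding stretches, and 2 such families are shown because their members differed between the areas in different ways. The pairs were picked after the values were seen. For each pair, the most alike in-frame coding stretches of 42 bases were found without gaps in the GENCODE M21 transcripts, on GRCm38, the assembly that mm10 names. Lower-case bases are shared by the pair and capitals mark those that differ. In Sst and Cort, whose peptides share a core and bind the same receptors, 32 of 42 bases were identical. The stretch lies in the last coding exon of each, exon 2 of 2, at 23889735 to 23889776 on chromosome 16 (minus strand) for Sst and 149125273 to 149125314 on chromosome 4 (minus strand) for Cort.
Sst: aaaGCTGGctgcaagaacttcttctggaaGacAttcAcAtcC
Cort: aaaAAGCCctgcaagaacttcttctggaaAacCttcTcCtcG
In Tac2, the neurokinin B precursor, and Tac1, the substance P precursor, which is not one of the 10, 28 of 42 bases were identical. The stretches cross an exon junction, from 127728470 to 127729148 on chromosome 10 (plus strand) for Tac2 and from 7557737 to 7559133 on chromosome 6 (plus strand) for Tac1.
Tac2: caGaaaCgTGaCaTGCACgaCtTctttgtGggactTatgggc
Tac1: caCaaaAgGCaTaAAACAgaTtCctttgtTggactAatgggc
The longest exact run shared anywhere in the transcripts was 21 bases for Sst and Cort and 10 for Tac2 and Tac1. The gene-level expected counts of Cort, Npy, Vip, Penk, Pdyn and Cartpt were whole numbers, as they are when no read is divided between genes. So were those of Tac2 and Crh in replicate 1. The larger counts, those of Sst and Cck and of Tac2 and Crh in replicate 2, are rounded here and cannot show this.

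Cck and Sst held nearly all of the precursor RNA. Values are TPM, a share of all transcripts in the library after correction for transcript length, together with expected counts, which are estimated numbers of reads. The 10 precursors summed to 2611 TPM in replicate 1 and 5820 TPM in replicate 2. Cck and Sst together made up 97.65% of that sum in replicate 1 and 92.6% in replicate 2. The other 8 summed to 61.4 and 430.7 TPM. Every member reached 1 TPM in at least 1 area, but 5 of 10 did so in both, 2 in replicate 1 alone and 3 in replicate 2 alone. Of the 12435 protein-coding genes at 1 TPM in either area, 11.1% reached it in 1 area alone, against 50.0% of the precursors. Of the members in 1 area alone, Vip, Pdyn and Cartpt averaged 0.990, 1.145 and 1.89 TPM, close to that minimum. The members were picked with these values known, so nothing is read from the 2 shares.

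**Figure D1:**
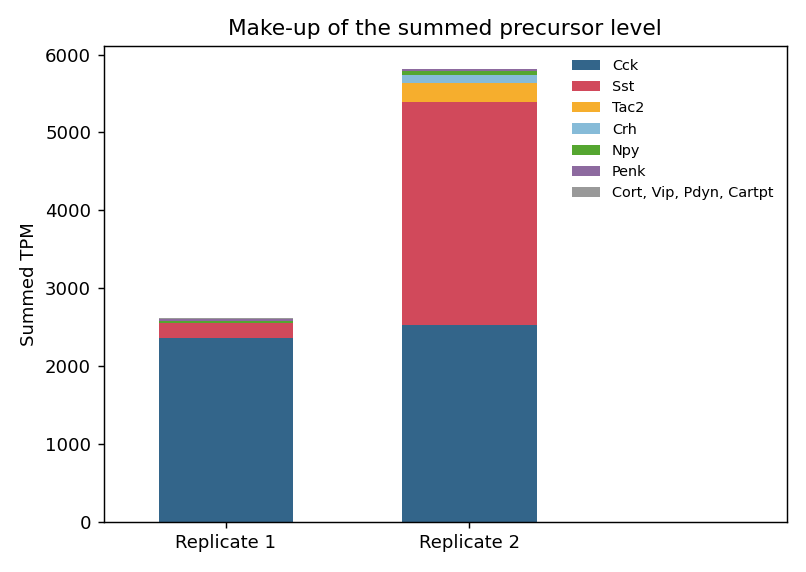
Summed TPM of the 10 precursors in each library, stacked by gene. The Cck segment is of like height in both bars (2355 and 2530 TPM), and the Sst segment is 194 TPM in replicate 1 and 2859 TPM in replicate 2.

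Past a 4-fold difference in TPM, among genes that averaged at least 1 TPM, 3 of 9 precursors were higher in replicate 2 (Sst, Crh and Tac2) and 2 of 9 in replicate 1 (Pdyn and Cartpt). Of 11841 protein-coding genes at that level, 2.18% were higher in replicate 2 by the same measure and 2.53% in replicate 1. The tenth member, Vip, had a mean of 0.990 TPM and was left out of this count, while Pdyn entered it with 1.145 TPM. Among genes averaging at least 20 TPM, 3 of 6 members were past 4-fold higher in replicate 2 and 0 of 6 in replicate 1, where the share of all 4422 such genes was 0.271% in each direction. Since the members were picked with these differences known, nothing is read from the shares.

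Sst encodes somatostatin, the inhibitory peptide that names a main interneuron class (ENSMUSG00000004366.3, chromosome 16 from 23889573 to 23890958 on mm10, minus strand). Replicate 1 held 2092 counts of it, at 194 TPM, and replicate 2 held 31816, at 2859 TPM. It was the 624th most abundant protein-coding gene in the first area and the 19th in the second. Per library total its counts were 14.0-fold higher in replicate 2. The exact Clopper-Pearson 95% interval ran from 13.4 to 14.7; here and below such intervals cover counting error only, since reads carry no molecular identifiers. Among the 213 protein-coding genes averaging at least 500 TPM, the median absolute log2 ratio of TPM + 1 was 0.20 and that of Sst was 3.87.

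Cort, the precursor of cortistatin, is known to be made in a part of the Sst-type cells and shares the stretch printed above. On chromosome 4 from 149125034 to 149126763, minus strand (ENSMUSG00000028971.4), it had 28 counts, or 2.25 TPM, in replicate 1 against 21 counts, or 1.63 TPM, in replicate 2. The ratio per total was 1.45 toward replicate 1, with an interval from 0.793 to 2.68, so no difference in Cort was detectable at this depth. The ratio of Sst lies outside that interval, in the other direction, and Cort stood far below Sst in both areas on the TPM scale.

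Tac2 and Crh were abundant in replicate 2 and nearly missing from replicate 1. Tac2 encodes neurokinin B, a tachykinin (ENSMUSG00000025400.6, chromosome 10 from 127724478 to 127731768, plus strand). Replicate 1 held 5 counts of it, at 0.40 TPM, and replicate 2 held 3115, at 240.8 TPM, a 574-fold ratio per total with an interval from 246 to 1769. Its place among protein-coding genes was 12894th in the first area and 506th in the second. Crh encodes corticotropin-releasing hormone, a stress peptide that cortical interneurons also make (ENSMUSG00000049796.4, chromosome 3 from 19693401 to 19695396, minus strand). Replicate 1 held 1 count of it, at 0.04 TPM, and replicate 2 held 2749, at 101 TPM, a ratio of 2533 with an interval from 454 to 100100. In both genes the areas stand far apart, and the size of the ratio is set by the few reads of replicate 1.

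Vip was low in both areas and lower in replicate 1. Vip encodes vasoactive intestinal peptide (ENSMUSG00000019772.4, chromosome 10 from 5639218 to 5647617, plus strand) and had 1 count in replicate 1, at 0.03 TPM, against 62 counts, or 1.95 TPM, in replicate 2. The ratio per total was 57.1, with an interval from 9.88 to 2293. Of the 3211 protein-coding genes averaging above 0 and below 1 TPM, as Vip does, 66.4% were past 4-fold in either direction. Npy encodes neuropeptide Y (ENSMUSG00000029819.6, chromosome 6 from 49822710 to 49829507, plus strand) and was present in both areas, with 273 counts (27.2 TPM) in replicate 1 against 639 (61.5 TPM) in replicate 2. Its ratio was 2.16 toward replicate 2 (1.87 to 2.50), well short of that of Sst, although some Sst cells are known to make both.

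Cartpt and Pdyn, the dynorphin precursor, went the other way at low levels. Cartpt encodes the CART peptide (ENSMUSG00000021647.6, chromosome 13 from 99898489 to 99901091, minus strand) and had 62 counts, or 3.72 TPM, in replicate 1 against 1 count, or 0.06 TPM, in replicate 2. The ratio was 67.3, with an interval from 11.6 to 2700. Pdyn (ENSMUSG00000027400.7, chromosome 2 from 129686565 to 129699844, minus strand) had 109 counts (2.21 TPM) against 4 (0.08 TPM), a ratio of 29.6 (11.2 to 110.5). Genes this low were often past 4-fold: 13.7% of the 3330 protein-coding genes averaging 1 to 5 TPM were so in either direction. Between 20 and 100 TPM, where Crh lies, this share was 0.533% of 3189 genes, and between 100 and 500 TPM, where Tac2 lies, 0.490% of 1020 genes.

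Cck and Penk were close to equal in the areas. Cck encodes cholecystokinin (ENSMUSG00000032532.6, chromosome 9 from 121489824 to 121495694, minus strand) and had 29693 counts (2355 TPM) in replicate 1 against 32986 (2530 TPM) in replicate 2, or 2442 ± 124 TPM (SD, n = 2). The ratio per total was 1.02 toward replicate 2 (1.01 to 1.04), and scaled to spike-in counts its sign turned, with a log2 ratio of replicate 1 over replicate 2 of 0.11. It was among the 25 most abundant protein-coding genes in both areas, 23rd and 21st. Penk, the enkephalin precursor (ENSMUSG00000045573.9, chromosome 4 from 4133531 to 4138819, minus strand) had 638 counts (25.6 TPM) in replicate 1 against 625 (23.5 TPM) in replicate 2, or 24.5 ± 1.499 TPM (SD, n = 2). Its ratio was 1.11 toward replicate 1, with an interval from 0.990 to 1.24.

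**Figure D2:**
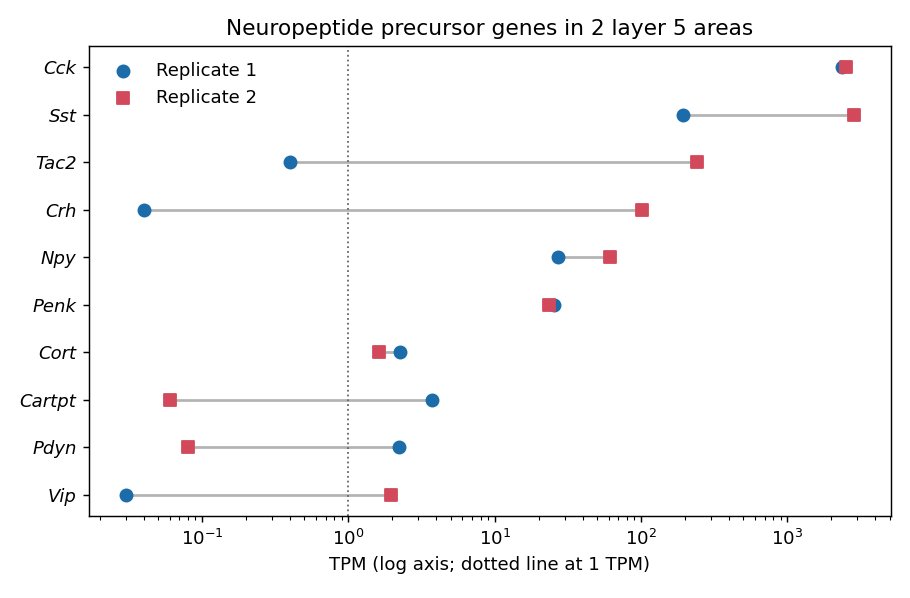
TPM of each precursor (log axis) in replicate 1 (circles) and replicate 2 (squares), ordered by mean level, with a dotted line at 1 TPM. Cck, Penk and Cort have near-coincident points, Crh spans 0.04 to 101 TPM and Tac2 0.40 to 240.8 TPM.

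By mean TPM the order ran Cck, Sst, Tac2, Crh, Npy, Penk, Cort, Cartpt, Pdyn and Vip, but much of it did not exceed the spread between the areas. Sst had a mean of 1527 ± 1884 TPM (SD, n = 2) and was above Cck in replicate 2 and far below it in replicate 1. Tac2 at 121 ± 170 and Crh at 50.6 ± 71.5 TPM were above Npy (44.3 ± 24.3) in replicate 2, and below Penk and Cort in replicate 1. In both areas Cck and Sst were above the other 8 members, Tac2 was above Crh, Npy was above Penk, and Npy and Penk were each above Cort, Cartpt, Pdyn and Vip.

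As a yardstick, the endogenous TPM of a library, spike-ins left out, can be divided by the 50 labelled cells, which gives 17308 TPM per cell in replicate 1 and 16961 in replicate 2 if all cells gave equal RNA. Cck then amounted to 13.6% and 14.9% of the RNA of 1 such cell. Sst amounted to 1.12% of it in replicate 1 and 16.9% in replicate 2. Tac2 in replicate 2 amounted to 1.42% and Crh to 0.597%. Both the equal shares and the label of 50 cells are assumptions, and in a bulk library fewer cells of a type and less RNA per cell cannot be told apart.

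**Figure D3:**
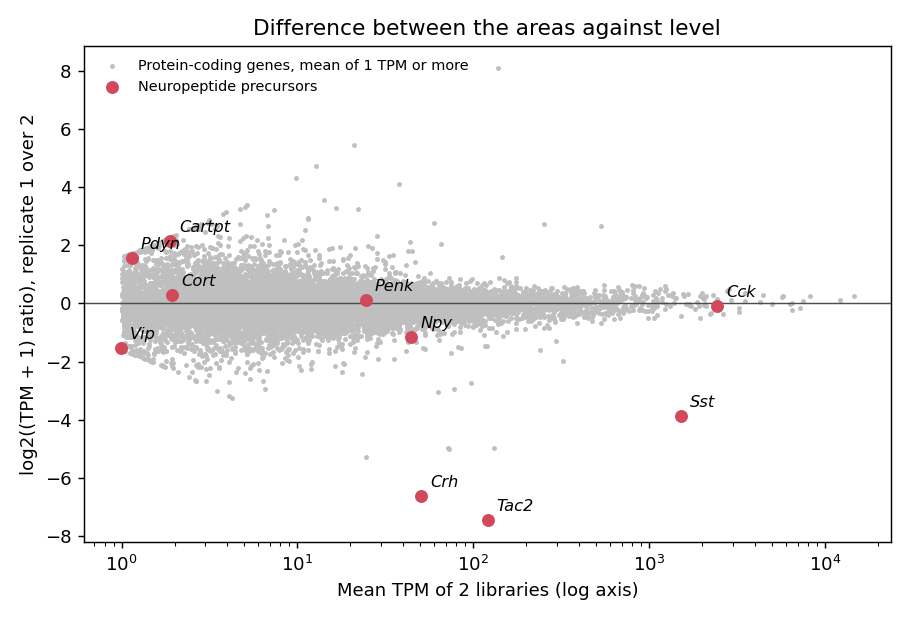
Log2 ratio of TPM + 1, replicate 1 over replicate 2, against mean TPM (log axis) for protein-coding genes averaging at least 1 TPM (grey) and the 10 precursors (red, named). Tac2 (-7.43), Crh (-6.62) and Sst (-3.87) lie far below 0, and Cck and Penk lie near 0. Grey genes lower than Sst include Hbb-bs (-4.955) and Hba-a2 (-4.956). Cartpt (2.15) and Pdyn (1.57) lie at the wide low end, where the 95th percentile of the absolute ratio was 1.74 between 1 and 5 TPM. Vip (-1.52) has a mean below the minimum of the grey genes.

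Among the 10 precursors 7 had 1 transcript in the tables and 3 had more. Penk was the 1 member with more than 1 transcript at 10% or more of its TPM in a library with at least 20 counts. Its 2-exon transcript (ENSMUST00000070375.7, 1449 bases) held 73.78% of the gene in replicate 1 and 79.02% in replicate 2, or 76.4% ± 3.71 (SD, n = 2). The 3-exon transcript (ENSMUST00000133567.1, 721 bases) held 26.22% and 20.98%, from 89.8 and 68.1 expected counts. The split was alike in both areas, as was the gene's level. In replicate 2 Tac2 came almost wholly from its 680-base transcript (ENSMUST00000026466.3), at 99.9%, with 4.19 counts given to the 852-base one. In replicate 1 all 5 counts were placed on the 680-base one, although the authors' posterior mean shares were 66.59% and 33.41%. Pdyn was placed wholly on its 2386-base transcript (ENSMUST00000028883.7) in both areas, although the posterior mean shares of the authors' table gave that transcript 83.5% in replicate 1 and 28.3% in replicate 2, where 4 counts stand behind it. Penk shares up to 157 exon bases with a noncoding gene on the opposite strand, A830012C17Rik, which had 0 counts in both areas, and strand use in counting is not given in the sources used here.

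Somatostatin, CART and several other precursor genes are known targets of the cAMP response, so the bases before their start sites were searched. RefSeq promoter entries on GRCm38.p6 were matched for 8 of the 10 members, 9 entries in all, and Crh and Penk had none. The search covered the 250 bases before each start site on both strands for the full cAMP response element TGACGTCA and for its core TGACG, which each full element holds on both strands. The full element stood in 2 of 9 member entries, Sst and Cartpt, against 1.55% of 32851 entries of all genes. The core stood in 5 of 9, those of Cartpt, Cck, Cort, Sst and Vip, against 17.8% of all. In Sst the element began 48 bases before the start site and in Cartpt 112 bases before it. The core began 79 bases before the start of Vip and, on the opposite strand, 47 before that of Cck and 18 before that of Cort. The GENCODE M21 gene models of Sst and Cartpt begin further upstream, so there these elements lie within a first exon. Of the genes with the full element, Sst was higher in replicate 2 and Cartpt in replicate 1, and Tac2, with neither motif in this window, was higher in replicate 2; a match is a description of letters and nothing is read from it. The sequences of these genes and of Vip follow with matches in capitals, for chr16:23890845-23891094 (minus strand, Sst), chr13:99900684-99900933 (minus strand, Cartpt), chr10:5638968-5639217 (plus strand, Vip) and chr10:127724228-127724477 (plus strand, Tac2).
Sst: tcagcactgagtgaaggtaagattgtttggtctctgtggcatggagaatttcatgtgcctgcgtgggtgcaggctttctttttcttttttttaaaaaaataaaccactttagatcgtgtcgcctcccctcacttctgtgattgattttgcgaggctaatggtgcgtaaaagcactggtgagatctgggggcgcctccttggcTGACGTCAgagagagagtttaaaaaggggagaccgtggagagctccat
Cartpt: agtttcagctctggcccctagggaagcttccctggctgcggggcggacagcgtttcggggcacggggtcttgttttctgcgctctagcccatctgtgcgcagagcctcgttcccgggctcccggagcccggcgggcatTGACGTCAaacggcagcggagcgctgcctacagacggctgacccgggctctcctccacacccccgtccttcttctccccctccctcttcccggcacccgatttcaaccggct
Vip: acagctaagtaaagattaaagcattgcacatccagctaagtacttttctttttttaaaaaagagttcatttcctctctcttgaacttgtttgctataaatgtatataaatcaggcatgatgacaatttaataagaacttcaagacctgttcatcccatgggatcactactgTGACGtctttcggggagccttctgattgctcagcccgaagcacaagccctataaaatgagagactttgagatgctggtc
Tac2: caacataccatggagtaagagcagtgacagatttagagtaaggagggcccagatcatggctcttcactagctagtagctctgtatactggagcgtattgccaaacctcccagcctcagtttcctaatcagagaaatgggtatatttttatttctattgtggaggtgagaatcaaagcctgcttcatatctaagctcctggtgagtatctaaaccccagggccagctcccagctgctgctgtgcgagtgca

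Other neuropeptide precursors were few and low. Of 45 measured, 6 reached 1 TPM in both areas and 23 had 0 counts in both, among them Oxt, Avp and Nts. Taken as 3 counts of the library total, the limit behind such a 0 is 0.115 CPM in replicate 1 and 0.106 CPM in replicate 2, where CPM is the count scaled to a fixed library total. Tac1, known from parvalbumin cells, was the highest in replicate 1 at 72.0 TPM and stood below Nppc, Adcyap1 and Pnoc in replicate 2 at 3.23 TPM, a 24.4-fold ratio per total (18.6 to 32.5) in the direction opposite to its relative Tac2. Pnoc, the nociceptin precursor, had 8.04 and 4.13 TPM, Nppc 7.74 and 4.72, Adcyap1, the PACAP precursor, 6.12 and 4.29, and Apln 4.28 and 2.70. Past 4-fold, 2 of 10 at a mean of 1 TPM were higher in replicate 1 (Tac1 and Adm) and 1 in replicate 2 (Agrp). The shares of all 11841 protein-coding genes at that level were 2.53% and 2.18%. The median log2 ratio of TPM + 1 of these 10 was 0.56 against -0.05 over all 11841 genes. Adm, the adrenomedullin precursor, had 152 and 2 counts, a ratio of 82.5 with an interval from 22.4 to 687. Adm and Agrp averaged 2.79 and 1.12 TPM. Of protein-coding genes averaging 1 to 5 TPM, 13.7% were past 4-fold in either direction. The count of Agrp in replicate 2 was a fraction, 30.9, so its assignment is uncertain.

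Receptors of the peptides were mostly close in level between the areas. Of 24 receptors and binding proteins, 11 reached 1 TPM in both areas, 8 had 0 counts in both, and 1 of 13 at a mean of 1 TPM was past 4-fold. That gene was Crhr1, the main receptor of Crh, with 29 counts in replicate 1 and 137 in replicate 2, a ratio of 4.35 toward replicate 2 (2.90 to 6.74). Between 1 and 5 TPM, where Crhr1 lies, 13.7% of protein-coding genes were past 4-fold in either direction. The somatostatin receptor Sstr2 led the list at 23.2 and 40.7 TPM, followed by the cholecystokinin receptor Cckbr at 13.7 and 11.6 and the PACAP receptor Adcyap1r1 at 11.3 and 11.8 TPM. Crhbp, which binds Crh outside the cell and is known from Sst-type cells, had 10.01 and 9.74 TPM. The neuropeptide Y receptor Npy1r had 4.11 and 7.53 TPM and the dynorphin receptor Oprk1 5.93 and 3.25 TPM. Tacr3, the receptor of neurokinin B, and Tacr1 were listed at 0 counts in both areas. Among the other opioid receptors of the list, Oprm1, an enkephalin receptor, had 5 and 7 counts, and Oprd1 had 77 and 143.

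Enzymes that process precursors were present in both areas. Of 8 genes 7 reached 1 TPM in both, and the median log2 ratio was -0.20. The carboxypeptidase Cpe had 1014 and 1129 TPM, the convertase chaperone Scg5 555 and 662, and the convertase inhibitor Pcsk1n 269.7 and 363 TPM. The convertase Pcsk2 had 100.4 and 93.8 TPM, and Pcsk1 7.20 and 14.1. Qpct, which forms pyroglutamate ends, was the 1 gene past 4-fold, at 39 and 474 counts, 11.2-fold higher in replicate 2 (8.07 to 15.9). Of all 11841 protein-coding genes at a mean of 1 TPM, 2.18% were past 4-fold in that direction.

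Genes of the interneuron classes were set beside the precursors, from lists chosen with earlier results known. Over all 11841 protein-coding genes at a mean of 1 TPM, 2.53% were past 4-fold higher in replicate 1 and 2.18% in replicate 2. Of 12 general GABAergic genes 10 reached 1 TPM in both areas, and the median log2 ratio was 0.29. Gad1, a GABA-synthesising enzyme, was 7.02-fold higher in replicate 1 (6.80 to 7.26), the direction opposite to Sst, while its partner Gad2 had 23.9 and 31.8 TPM. In the somatostatin class list 1 of 8 genes at a mean of 1 TPM was past 4-fold in each direction, Reln toward replicate 2 and Nr2f2 toward replicate 1. The receptor subunit Grin3a was 2.45-fold higher in replicate 2 (2.23 to 2.68), and Chodl, which marks long-range Sst cells, was at 0 in both areas. The whole list summed to 58.5 and 103 TPM.

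In the Vip and Cck class list 3 of 6 genes at a mean of 1 TPM were past 4-fold and all 3 stood higher in replicate 2. Among them Synpr, of synaptic vesicles, had 669 and 6149 counts, the transcription factor Npas1 128 and 636, and Tnfaip8l3 0 and 137. Calb2, the calretinin gene, lay the other way, with 62 and 18 counts, 3.74-fold higher in replicate 1 (2.18 to 6.71). The endocannabinoid receptor Cnr1, which marks Cck interneurons, had 2660 and 3300 counts, and Adarb2 had 73 and 101. Htr3a, Sp8, Chat and Crispld2 were at 0 counts in both. Of all 11841 protein-coding genes at a mean of 1 TPM, 2.18% were past 4-fold higher in replicate 2 and 2.53% in replicate 1. Between 1 and 5 TPM, where Tnfaip8l3 lies, 13.7% were past 4-fold in either direction. Since the lists were chosen with earlier results known, nothing is read from their counts. In the Lamp5 and neurogliaform list Ndnf, a secreted factor of upper-layer interneurons, had 1 and 649 counts, a ratio of 598 toward replicate 2 with an interval from 107 to 23660, and Reln was 3.64-fold higher by counts (3.28 to 4.04). Lamp5 and Id2 of that list had ratios by counts of 1.05 and 1.12, both toward replicate 1, while Lamp5 had 107.7 and 116.9 TPM. Gabrd and Cplx3 lay clearly toward replicate 1. Gabrd had 63.47 and 39.55 TPM, a ratio by counts of 1.67 (1.564 to 1.775). Cplx3, averaging 0.635 TPM, had 60 and 15 counts, a ratio of 4.34 (2.43 to 8.23). In the parvalbumin class list 7 of 8 genes were higher in replicate 1, and 4 of them were past 4-fold: Pvalb at 917.6 and 145.5 TPM, Kcnc1 at 106.5 and 24.89, Cox6a2 at 105.2 and 14.71, and Tac1. The other gene, Cplx1, was higher in replicate 2, at 229.2 and 358.4 TPM. By counts per total Kcnc1 was 2.75-fold higher in replicate 1 (2.595 to 2.925), short of 4-fold.

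**Figure D4:**
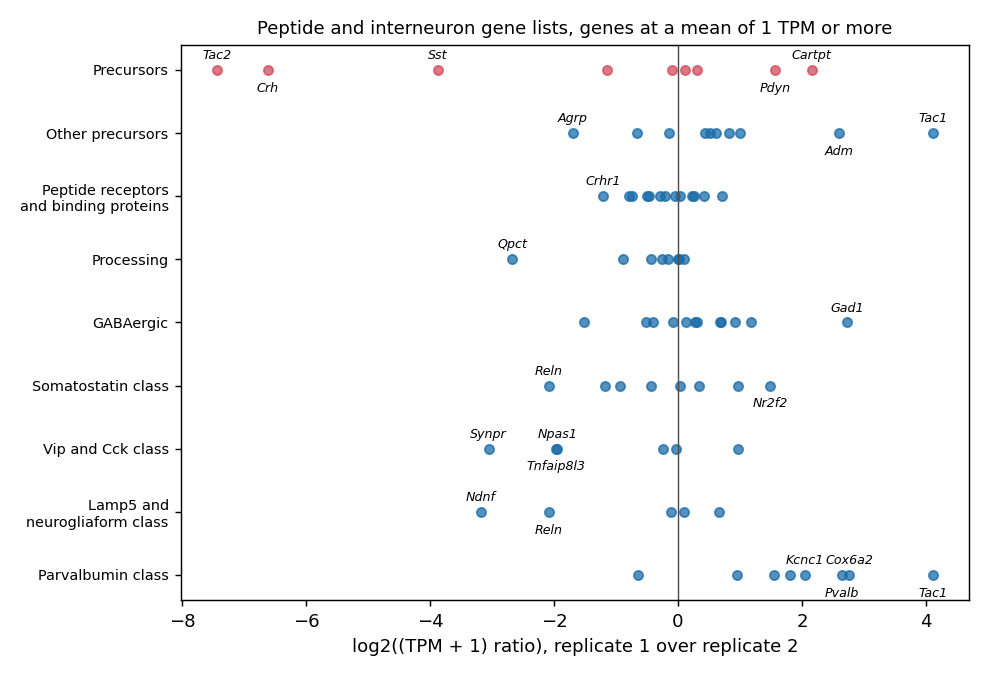
Log2 ratio of TPM + 1, replicate 1 over replicate 2, for each gene averaging at least 1 TPM in the precursor list (red) and 8 related lists (blue), with names for genes past 4-fold in TPM. Parvalbumin class genes lie mostly right of 0, Vip and Cck class genes mostly left, and receptors within about 1 unit of 0 apart from Crhr1 (-1.20).

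The genes most like Sst in their ratio, among the 4422 averaging at least 20 TPM and over 2 libraries, were Synpr, Apod, Hbb-bs, Hba-a2 and Trf, whose log2 ratios lay within 1.13 of that of Sst. The nearest, Synpr, was 0.820 away. These genes include those of glia and red blood cells, and with 2 points the likeness holds no more than a shared direction. Other cell classes also differed between the areas. For the counts past 4-fold below, the shares of all 11841 protein-coding genes were 2.18% toward replicate 2 and 2.53% toward replicate 1. All 10 oligodendrocyte genes were higher in replicate 2, with summed levels of 587 and 1147 TPM and Trf and Cldn11 past 4-fold. So were 4 of 5 erythrocyte genes, Hba-a1, Hba-a2, Hbb-bs and Hbb-bt, each past 4-fold, with the list at 16.01 and 586 TPM. Of 10 microglial genes 9 were higher in replicate 1 (367 and 124 TPM summed), with Csf1r, P2ry12 and C1qc past 4-fold. Of 7 endothelial and mural genes at a mean of 1 TPM 6 were higher in replicate 1 (136 and 58.1 TPM over all 9), with Vtn past 4-fold. Excitatory genes summed to 1494 and 1726 TPM, with Slc17a6 past 4-fold at 4 and 364 counts, and astrocyte genes to 1610 and 1984 TPM. All 10 layer 5 markers reached 1 TPM in both areas, and Crym was past 4-fold higher in replicate 1. No gene of these lists was at 0 in both areas, and the part of these differences in those of the precursors was not tested.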

How the data were processed

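Libraries of 2 laser-captured layer 5 areas followed a Smart-seq document, per the labels. The authors deposited gene and transcript tables that hold the expected count (an estimated count, which may be a fraction, made by dividing reads among transcripts), TPM, a posterior mean TPM and the percent of a gene held by each transcript, per the file headers. The deposited tables also gave score columns, bounds and spreads of the estimates, of which none is printed. Text files that the authors deposited name mm10 as assembly and M4 as annotation. The column layout is that of RSEM, while program, aligner, trimming and strand setting are not given in the sources used here.

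Library totals were 26059117 and 28276843 expected counts. The libraries were not copies: over 14131 features with a summed count of at least 50, the chi-square was 69.5 times its degrees of freedom. Symbols and coordinates came from GENCODE M21, another release on the same assembly, which matched 42462 of 43346 Ensembl gene rows. Promoter entries came from RefSeq on GRCm38.p6.

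Ratios are counts per library total, with exact Clopper-Pearson 95% intervals; log2 ratios are on the log2(TPM + 1) scale, which understates changes of low genes. A difference of 4-fold in TPM at a mean of 1 TPM was the call. With 1 group no p-value was computed, and the spread between the libraries may be technical. The members, lists and tests were chosen with earlier results of these data known. The naming rule took all members, up to 4 genes with the highest mean TPM per list, of which not all are printed, those past 4-fold, and the 5 genes nearest to Sst; other genes were named after their values were seen. Kiss1 had no match. Some items are not reported here. Expected counts were rounded for the TMM factors (edgeR version 4.0.16, R version 4.3.3). Python was version 3.11.15, with scipy 1.17.1 for intervals, pandas 2.3.3 and numpy 2.4.6 for tables, and matplotlib 3.10.9 for plots.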

Additional observations from a re-analysis of the deposited data

How the results depend on the processing

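The count of members past 4-fold higher in replicate 2 stayed between 3 and 4 under CPM, posterior mean TPM, nuclear TPM, spike-in scaling, TMM factors, pseudocounts of 0.1 and 1 TPM, no filter, and a mean of 20 TPM. That in replicate 1 was 2, but 1 with a pseudocount of 1 TPM and 0 at a mean of 20 TPM, where Pdyn and Cartpt are not tested. Members at 1 TPM in both areas were 5, between 4 and 6 under the other units and minimums; without replicate 1 or without replicate 2, 8 and 7 reached 1 TPM. The summed TPM, with a mean of 4215, was 1773 without Cck, the highest member, and ran from 2611 to 5820 with each library left out. With posterior mean shares, 2 members instead of 1 had more than 1 transcript at 10%. The log2 ratio kept its sign in 9 of 10 members under 6 settings, Cck being the exception. No paired analysis was possible because the libraries form 1 group. Depth limits Cort, whose 21 to 28 counts cannot show a small difference, and the size of the ratios of Crh, Vip and Cartpt, each with 1 count in an area.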

Other observations

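Of the precursors best known from the hypothalamus, some gave a few counts, while Oxt, Avp and Ghrh were at 0 counts in both areas. Hcrt, the orexin precursor, had 9 counts in replicate 1 and 21 in replicate 2, and Pomc had 15 and 21. Agrp had 0 and 30.9 counts and Pmch, the melanin-concentrating hormone precursor, 0 and 15.9. Both values of replicate 2 are fractions, as they are when reads are divided between genes, so their assignment is uncertain. Gnrh1 had 10 counts in replicate 1 and 0 in replicate 2. These genes were named after their values were seen.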
